A study of Arabidopsis thaliana with 17 samples.

Results

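The level of H3K27me3 relative to histone H3 on the maternal genome of Arabidopsis thaliana endosperm is described here gene by gene. Only reads assigned to Col, the mother of the cross, were used. A gene was included when its body held at least 20 H3 reads assigned to Col, which left 21914 of 27444 nuclear protein-coding genes. Of the 5530 genes that were left out, 2932 had no Col read with either antibody, 391 had H3K27me3 reads and no H3 read, and 2207 had fewer H3 reads than the minimum. Genes with few or no sequence differences between the parents cannot gather parental reads, so the genes left out are no sample of the rest.

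The nuclei came from seeds of Col plants fertilised with Ler pollen, so all groups used here share the genotype Col (mother) x Ler (father) F1. Nuclei of 6N content were sorted by DNA stain 4 days after pollination, when the embryo was globular, and the plants received no treatment. They were profiled by CUT&RUN, in which a nuclease tethered to an antibody cuts out the bound chromatin, either unfixed or after formaldehyde fixation. Each combination of fixation and antibody (H3 or H3K27me3) has 2 libraries. The counts come as 1 column per antibody and parent for endosperm as a pool, so no value has a replicate, no test between samples was possible, and fixed and unfixed nuclei cannot be told apart. A separate H3K27me3 library from leaf nuclei of 3-week-old Col plants is used as an outside comparison.

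H3K27me3 is written by Polycomb repressive complex 2 and is found in plants over bodies of genes that are kept silent in a given tissue or stage. Endosperm is the triploid nourishing tissue of the seed, and it carries more maternal than paternal genome copies. It has its own Polycomb complex with the subunits MEA and FIS2, and on the maternal genome this complex is known to silence genes that stay active from the father. Constitutive heterochromatin around plant centromeres is usually marked by H3K9 methylation and DNA methylation and usually carries little H3K27me3.

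The Col columns held 11018316 H3K27me3 reads and 6201154 H3 reads in nuclear bins of 150 bp, and 546596 of 794273 bins held a Col read. The level of a gene is the log2 ratio of its H3K27me3 to its H3 reads, each divided by its nuclear Col total, so a level of 0 means the gene took the same share of both. Levels from Ler reads, where given, are scaled to the nuclear Ler totals instead, so the 2 parents do not share a 0. Each level is given with a standard error that covers counting error and the clumping of reads along genes: the counting error was multiplied by 1.90, the factor by which the left and right parts of gene bodies outside all endosperm domains differed beyond counting. The median standard error was 0.34. The error does not cover variation between libraries. H3 reads assigned to Col were 4.31 times those assigned to Ler, and H3K27me3 reads 9.41 times. The H3 ratio is above the maternal to paternal genome dose of triploid endosperm. What maternal seed tissue in the sort or the assignment of reads contributed to these ratios, and so to the Col levels, was not tested.

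The median maternal level was -0.32, and the middle 50% of genes lay between -0.74 and 0.29. The upper tail was long: 5% of genes lay above 1.40 and 1% above 2.06. At the low end 5% lay below -1.38 and 1% below -1.98. A gene was called high when its level was at least 2-fold above the H3 share (log2 of 1 or more), and low when at least 2-fold below it. High were 2140 genes, 9.77% of those measured, and low were 3017 genes, 13.8%. In 2080 of the high and 2642 of the low genes the widened 95% interval also lay beyond 0. This split depends on what counts as 0: taken relative to the median gene, a shift of 0.32, high genes numbered 3337 (15.2%) and low genes 1281 (5.85%), and scaled to reads outside endosperm domains, a shift of 0.53, they numbered 4398 and 707. High genes made up 41.5%, 72.3% and 86.2% of the calls under the 3 scalings. The order of genes is the same under all of them, and levels below are best read against the median of -0.32.

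High and low genes had nearly the same H3 density, so that the difference in H3K27me3 density given here follows from the call. The median density of H3 reads was 55.0 per kb in high genes, 51.1 in low genes and 54.7 in all measured genes. Median H3K27me3 density was 274 per kb in high genes, 36.4 in low genes and 82.8 in all. Across 5 equal groups of genes by H3 density, chosen after values were seen, the median level stayed between -0.29 and -0.37 and the share of high genes between 8.97% and 10.5%. Gene length moved with the level. In the shortest 20% of genes, up to 1337 bp, 15.4% were high and 15.25% low, with a median of -0.07. In the longest, above 3486 bp, 5.00% were high and 11.3% low, with a median of -0.41. Both shares were thus larger in the shortest genes. The 101 genes with 19 H3 reads, just outside the minimum, had levels from -3.79 to 2.22 with a median of 0.11, and the 117 genes with 20 had levels from -3.02 to 2.82 with a median of 0.15.

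**Figure D1:**
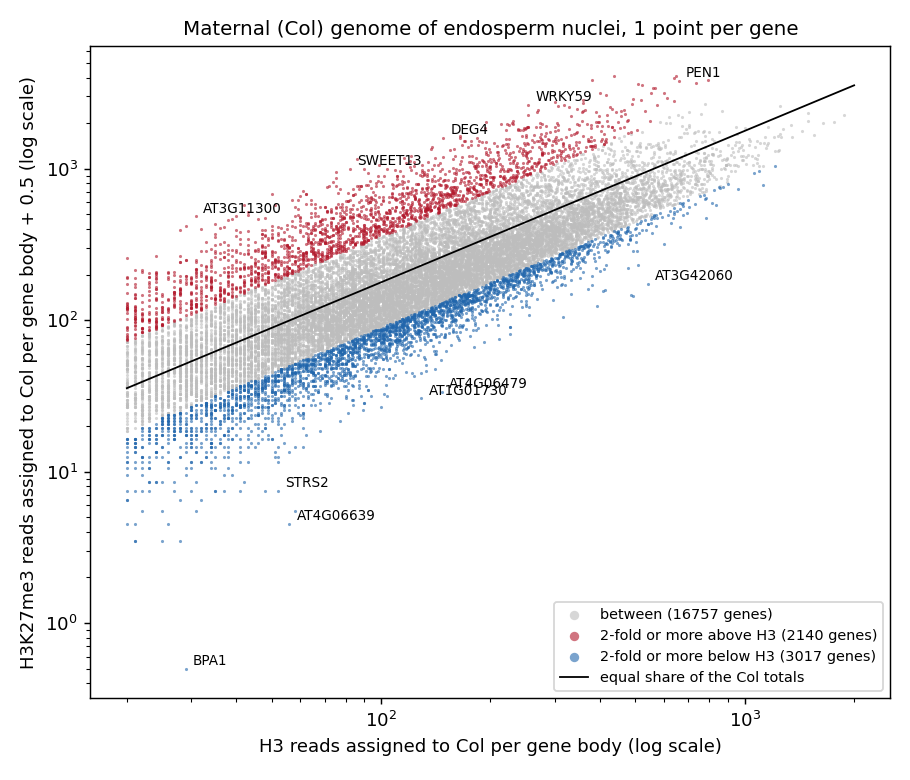
Reads assigned to Col per gene body for H3 (horizontal, log scale) and H3K27me3 with 0.5 added (vertical, log scale), 1 point per measured gene. The line marks equal shares of the totals; 2140 genes lie 2-fold or more above it (red) and 3017 2-fold or more below it (blue).

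The genes with the strongest H3K27me3 on the maternal genome, ranked by the lower bound of their counting interval, included 2 transporter genes, a protease gene, a transcription factor gene and 6 loci without a symbol. AT3G11300 on chromosome 3 had 484 H3K27me3 reads against 31 H3 reads, a level of 3.11 ± 0.50. BETAG4 on chromosome 5, a beta-1,3-glucanase gene, had 1156 against 86 (2.91 ± 0.31). MLP28 on chromosome 1, of the major latex protein family, had 418 against 29 (3.00 ± 0.52). These 3 genes lie on different chromosomes. SWEET13, a sugar exporter gene on chromosome 5, had 1002 against 82 reads (2.77 ± 0.31). AMT1;5, an ammonium transporter gene on chromosome 3, had 868 against 75 (2.69 ± 0.33). WRKY59, a transcription factor gene on chromosome 2, was the most deeply read of them with 2639 against 254 (2.55 ± 0.18). DEG4, a DegP-type protease gene on chromosome 1, had 1605 against 148 reads (2.61 ± 0.23). The other 5 of the 12 highest genes, AT1G78450, AT4G02733, AT2G21930, AT3G49770 and AT4G12050, had levels from 2.72 to 2.95. All 12 lay wholly inside an H3K27me3 domain of leaf.

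The 12 genes with the least H3K27me3 for their H3 included 6 pericentromeric loci. The most deeply read were these: AT3G42060 had 173 H3K27me3 against 542 H3 reads (-2.47 ± 0.24), AT4G06688 143 against 494 (-2.61 ± 0.26), and AT5G32590 147 against 488 (-2.56 ± 0.26). The other pericentromeric loci, AT4G06639, AT3G32090 and AT4G06479, had levels of -4.48, -3.52 and -2.97. On the arms, STRS2 on chromosome 5, which encodes a DEAD-box RNA helicase, had 7 against 52 reads (-3.64 ± 1.07). AT1G01730 had 30 against 129 (-2.92 ± 0.55). BPA1 on chromosome 5 had 0 H3K27me3 and 29 H3 reads; with the 3 reads that a count of 0 allows, it lay below 0.0582 of the H3 share. The arm genes AT3G57400, AT1G12440 and LCR18, a gene for a small cysteine-rich protein, had levels of -4.24, -3.85 and -3.30 from 7 or fewer H3K27me3 reads each. None of the 12 lowest genes had a base in a leaf domain.

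High maternal H3K27me3 lay over whole genes and reached beyond them, and low levels dipped at the gene. In high genes of 2000 bp or more, the pooled level was 1.55 at 750 to 1000 bp inside the gene, 1.18 in the first 250 bp outside it and 1.07 in the last step, which ends 3000 bp outside. Only bins in no other gene were used for the outside, and both ends were pooled because the strand was not used here. Low genes were at -1.35 inside, at 250 to 500 bp from the boundary. Their level was -1.0 just outside and between -0.51 and -0.44 from 750 bp outwards. Genes called neither way also had their lowest level at the boundary, -0.34 in the first 250 bp inside, against 0.16 at 2000 bp outside. The inside values follow from the way genes were called, and the outside bins were not used in the calls.

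**Figure D2:**
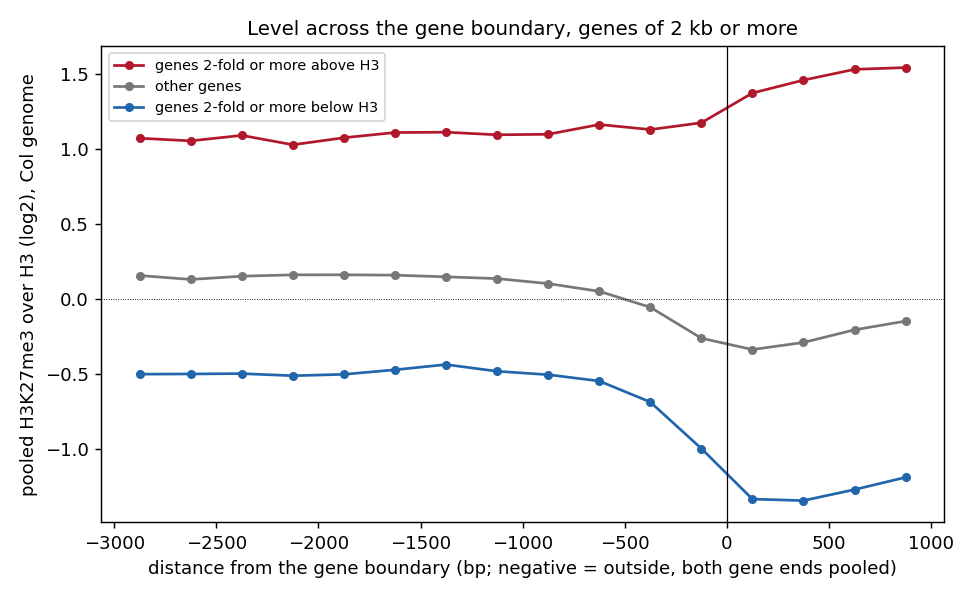
Pooled H3K27me3 over H3 of Col reads (log2) in steps of 250 bp across the gene boundary, for genes of 2000 bp or more called high, low or neither; negative distances lie outside the gene. High genes stay at 1.03 or more out to 3000 bp, while low genes climb from -1.35 inside to -0.50 at 3000 bp outside.

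Regulators of meristems, organ boundaries and roots were high almost as a group. Of 20 genes in the list, 16 were measured, 15 of them were high and 1 was low, with a median level of 1.55 against -0.32 for all genes. Over all measured genes 9.77% were high and 13.8% low, and the list counts here and below are to be read against these shares. HB-3 (locus AT2G33880), also known as WOX9 or STIMPY, which keeps meristems growing, had 493 against 43 reads (2.67 ± 0.43). CUC2, a NAC factor that sets organ boundaries, had 2580 against 307 (2.24 ± 0.17). CLV3, the signal peptide that limits the stem cell pool, was at 1.89 ± 0.35, and WUS, the stem cell factor it restrains, at 1.72 ± 0.59. Both arms of that feedback loop thus held the mark. The class I KNOX genes STM, KNAT2, KNAT6 and KNAT1, which keep meristem cells undifferentiated, ranged from 1.56 down to 1.12. PLT1 and BBM, AP2-type factors of root and embryo identity, were at 1.70 ± 0.27 and 1.24 ± 0.31, and the root hair factors RHD6, RSL1 and RSL2 between 1.54 and 1.65. SCR, which patterns the root ground tissue, was the exception with 106 against 123 reads (-1.04 ± 0.36). CUC1, CUC3 and PLT2 had no Col read and RSL4 had 17 H3 reads, so they were not measured.

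Floral and flowering-time regulators were mostly above the median gene and ran from 2.36 down to -0.73. Of 25 genes 24 were measured, with 11 high, none low and a median of 0.91. AGL8, also called FRUITFULL, which acts in fruit and meristem identity, was highest at 2.36 ± 0.29 (896 against 98 reads). FLC, the vernalisation-controlled repressor of flowering, was at 2.27 ± 0.22 (1437 against 167). The meristem identity genes AP1, CAL and LFY were at 1.85 ± 0.21, 1.78 ± 0.18 and 1.58 ± 0.35. FT, which encodes the mobile flowering signal, was at 1.82 ± 0.42, and its near relative TSF at 1.27 ± 0.22. Among flowering-time MADS-box genes, SVP, AGL24 and AGL20 (SOC1) ran from 1.73 down to 1.03. Of the organ identity genes, AP3 was high at 1.16 ± 0.36, and PI at 0.80 ± 0.30 and AG at 0.59 ± 0.15 were not called. The SEPALLATA cofactors SEP1, SEP2 and SEP3 were at -0.50 ± 0.22, -0.43 ± 0.46 and -0.73 ± 0.25, near or below the median gene, and SEP4 at 0.86 ± 0.28.

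Genes known to be expressed from the father's genome in endosperm carried high H3K27me3 on the mother's copy. Of 13 such genes 11 were measured, 8 were high and none was low, with a median of 1.77. Leaf domains also covered at least 50% of the body in 9 of the 11, against 20.2% of all measured genes. Other lists had this too: 15 of the 16 measured meristem, boundary and root regulators and 11 of the 12 measured seed maturation genes. Among the 13 measured endosperm regulators it was 6. AT1G49290 (PEG2) was highest with 1642 against 165 reads (2.48 ± 0.22). AT4G11940 (ADM), a DnaJ-domain gene, had 675 against 84 (2.17 ± 0.32). VIM5, a relative of the methylcytosine-binding VIM1, had 3555 against 521 (1.94 ± 0.13). SUVH7, an SRA- and SET-domain gene, had 2367 against 390 reads (1.77 ± 0.15). The auxin synthesis genes TAR1 and YUC10 were at 1.87 ± 0.36 and 1.75 ± 0.23, and PKR2, a PICKLE-related chromatin remodeller gene, at 1.77 ± 0.37. Side by side, the Ler reads, scaled to the Ler totals, gave -0.23 for VIM5, -0.12 for SUVH7, -0.56 for YUC10 and 0.61 for AT1G49290. AGL92 was at 1.29 on Col and 1.07 on Ler. HDG3, SDG21 (SUVH8) and NRPD1A, the largest subunit of RNA polymerase IV, were not high, at 0.73 ± 0.21, 0.35 ± 0.22 and -0.24 ± 0.13. PHE1, the best studied of these genes, had 90 H3K27me3 reads and 14 H3 reads and missed the minimum.

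The genes listed as maternally expressed had a median near that of all genes. All 10 measured of 11 were called neither high nor low, between -0.45 and 0.45, with a median of -0.30. The shares over all measured genes were 9.77% high and 13.8% low. FWA, a homeodomain gene controlled by DNA methylation, had 175 against 134 reads (-0.45 ± 0.31). DME, the DNA glycosylase that removes 5-methylcytosine before fertilisation, had 217 against 165 (-0.44 ± 0.28). Whether DME is expressed from the mother's genome in endosperm was not tested here. FIS2, a subunit of the endosperm Polycomb complex, was the highest with 488 against 201 (0.45 ± 0.23). MEA had no Col read in its body. The Polycomb genes themselves were also near the middle: 11 of 14 were measured, none was called, and they ran from SWN, a catalytic subunit, at -0.96 ± 0.66 to DRIP2 (BMI1A), a ring finger protein of the PRC1 type, at 0.53 ± 0.27. Their median of 0.08 became -0.40 when 500 bp on each side were added.

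Endosperm regulators were mixed. Of 18 genes in the list, 13 were measured, with 3 high (23.1%) and 1 low (7.69%) and a median of 0.77. The shares over all measured genes were 9.77% and 13.8%. The type I MADS-box genes AGL23 and AGL86 were at 2.08 ± 0.26 and 1.56 ± 0.24. AGL62, which holds back endosperm cellularisation, was at -0.05 ± 0.32, and AGL80, a central cell factor, was low at -1.23 ± 0.53. IKU2, a receptor kinase for endosperm growth, and RGE1 (ZHOUPI), which drives endosperm breakdown, were at -0.14 ± 0.26 and -0.11 ± 0.26, and WRKY10 (MINI3), which acts with IKU2, at 0.79 ± 0.22.

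Seed maturation genes, which come on later in seed growth, were also split. Of 18 genes 12 were measured, 5 were high and 1 was low, with a median of 0.71. The master regulators ABI3 and FUS3 had 1205 against 175 (1.95 ± 0.22) and 632 against 95 reads (1.90 ± 0.30). LEC2 and LEC1 were at 0.56 ± 0.27 and -0.10 ± 0.22. Among products of maturation, GEA6 (EM6), a late embryogenesis protein, was at 2.12 ± 0.45, the cruciferin CRA1 at 1.92 ± 0.24 and the oleosins OLEO1, OLEO2 and OLEO4 between 0.20 and 0.76. WRI1, which drives oil synthesis, was low at -1.19 ± 0.49. Seed coat genes, which belong to maternal tissue that surrounds the endosperm, had 3 high and none low of 12 measured of 14, with a median of 0.70. They ran from the proton pump AHA10 at -0.96 ± 0.38 to the transcription factor MYB5 at 2.17 ± 0.59. TT16, a MADS-box gene of the inner seed coat, was at 1.71 ± 0.18, and BAN, the tannin synthesis enzyme, at -0.14 ± 0.20.

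Among 35 families matched by symbol or synonym, the WRKY, CLE, MYB, peroxidase and homeobox families had the highest medians, from 0.77 down to 0.48. The confidence interval of the median lay above -0.32, the median of all genes, in each of them but the peroxidases. For peroxidases this interval ran from -0.86 to 1.30 and so contained the median of all genes. For CLE genes it ran from -0.08 to 1.39. Only 39.6% of measured genes have a symbol, so a family here means its genes with a matching name and not all of its members. The shares over all genes, 9.77% high and 13.8% low, are the measure for the counts that follow. Of 68 WRKY genes 55 were measured, 19 were high and 3 low, with a median of 0.77. WRKY72 followed WRKY59 with 1109 against 123 reads (2.34 ± 0.26), and WRKY69 was lowest at -1.60 ± 0.45. MYB genes had 33 high and 9 low of 104 measured and a median of 0.66, from MYB109 at -1.38 to MYB79 at 2.82 ± 0.63. MADS-box genes had 27 high and 7 low of 73, with AGL103 highest at 2.58 ± 0.29. Homeobox genes had 19 high and 3 low of 70, led by HB-3 and WOX1 (2.51 ± 0.24), a gene of leaf blade growth. NAC genes had 21 high and 7 low of 74, led by NAC097 and NAC067, both at 2.62. The 16 measured bHLH genes matched in this way had 4 high and 1 low (median 0.03). AP2/ERF genes had 9 high and 12 low of 54 and a median of -0.32, equal to that of all genes. TDR1 (ERF98) was their highest at 2.74 ± 0.46 and CRF5, a cytokinin response factor, their lowest at -1.80 ± 0.36.

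Among signals, CLE peptide genes had 6 high and 1 low of 15 measured of 30 (median 0.75), with CLE4 and CLE26 both at 2.01. RALF peptide genes had 6 high and 3 low of 25 (0.15), and defensin-like genes 10 high and 3 low of 83 (0.20), with PDF1.2, a jasmonate-induced defensin, at 2.26 ± 0.50. Auxin signalling genes of the Aux/IAA and ARF type had 3 high and 4 low of 45 (-0.02), with IAA14, a repressor in lateral root formation, at 2.30 ± 0.48. The high share of defensin-like genes, 12%, and the low share of receptor kinases, 15%, lay near those of all genes. Receptor kinases had 5 high and 21 low of 140 and a median of -0.42. RLK1, at 2.23 ± 0.24, was the highest of them.

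Enzymes and transporters spread widely. Cytochrome P450 genes had 50 high and 12 low of 189 measured of 237, with a median of 0.19, and CYP96A3 and CYP96A5 reached 2.43 ± 0.22 and 2.31 ± 0.19. Peroxidases had 5 high and 1 low of 18 (0.62): AT5G64120 and RCI3 were at 2.64 and 2.25, and the cytosolic ascorbate peroxidase APX1 was low at -1.10 ± 0.42. The lowest of this name-matched set were APX1, TL29, APX3 and APX5, so its median pools ascorbate peroxidases such as APX1 with the others. Sugar and amino acid transporters had 13 high and 4 low of 73 (0.23), from AAP4, an amino acid permease, at -2.25 ± 0.63 to SWEET13. Expansins, which loosen cell walls, had 6 high and 2 low of 31 (-0.02), with EXPB2 at 2.50 ± 0.26 and EXPA20 at -2.25 ± 0.55. ABC transporters had 7 high and 16 low of 119 (-0.25).

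Families for basic cell functions, taken by their named genes only, had few or no high members. The low share was near the 13.8% of all genes in the first 4 given here. Ribosomal protein genes had 0 high and 10 low of 61 (median -0.37), DNA repair and replication genes 0 high and 6 low of 40 (-0.47), pentatricopeptide repeat genes 0 high and 5 low of 28 (-0.49), and splicing factor genes 0 high and 3 low of 17 (-0.74). The low shares of these 4 families were 16.4%, 15%, 17.9% and 17.6%. Photosystem and light-harvesting genes had 0 high and 9 low of 35 (-0.59), a low share of 25.7%. MCM5, a subunit of the replicative helicase, was at -1.79 ± 0.29 with 137 against 268 reads. Relative to the median gene these counts of low members became 5, 1, 3, 1 and 5, and scaled to reads outside endosperm domains the medians of the ribosomal, repair and pentatricopeptide families turned positive (0.16, 0.06 and 0.04). Histone genes had 5 low and 2 high of 18. The high ones were HTA4, an H2A gene (2.07 ± 0.34), and MGH3, a histone H3 gene of male gametes (1.51 ± 0.53), and the lowest was HTB11, an H2B gene, at -1.45 ± 0.59. Of 8 measured housekeeping genes, UBQ10, ACT7 and UBC9 were low (-1.34 ± 0.30, -1.29 ± 0.57 and -1.68 ± 0.82) and none was high. Of 11 photosynthesis genes, the Rubisco small subunit genes RBCS3B and RBCS2B were high (1.94 ± 0.55 and 1.55 ± 0.51), and GAPB, CAB2 and LHCB2.1 were low.

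**Figure D3:**
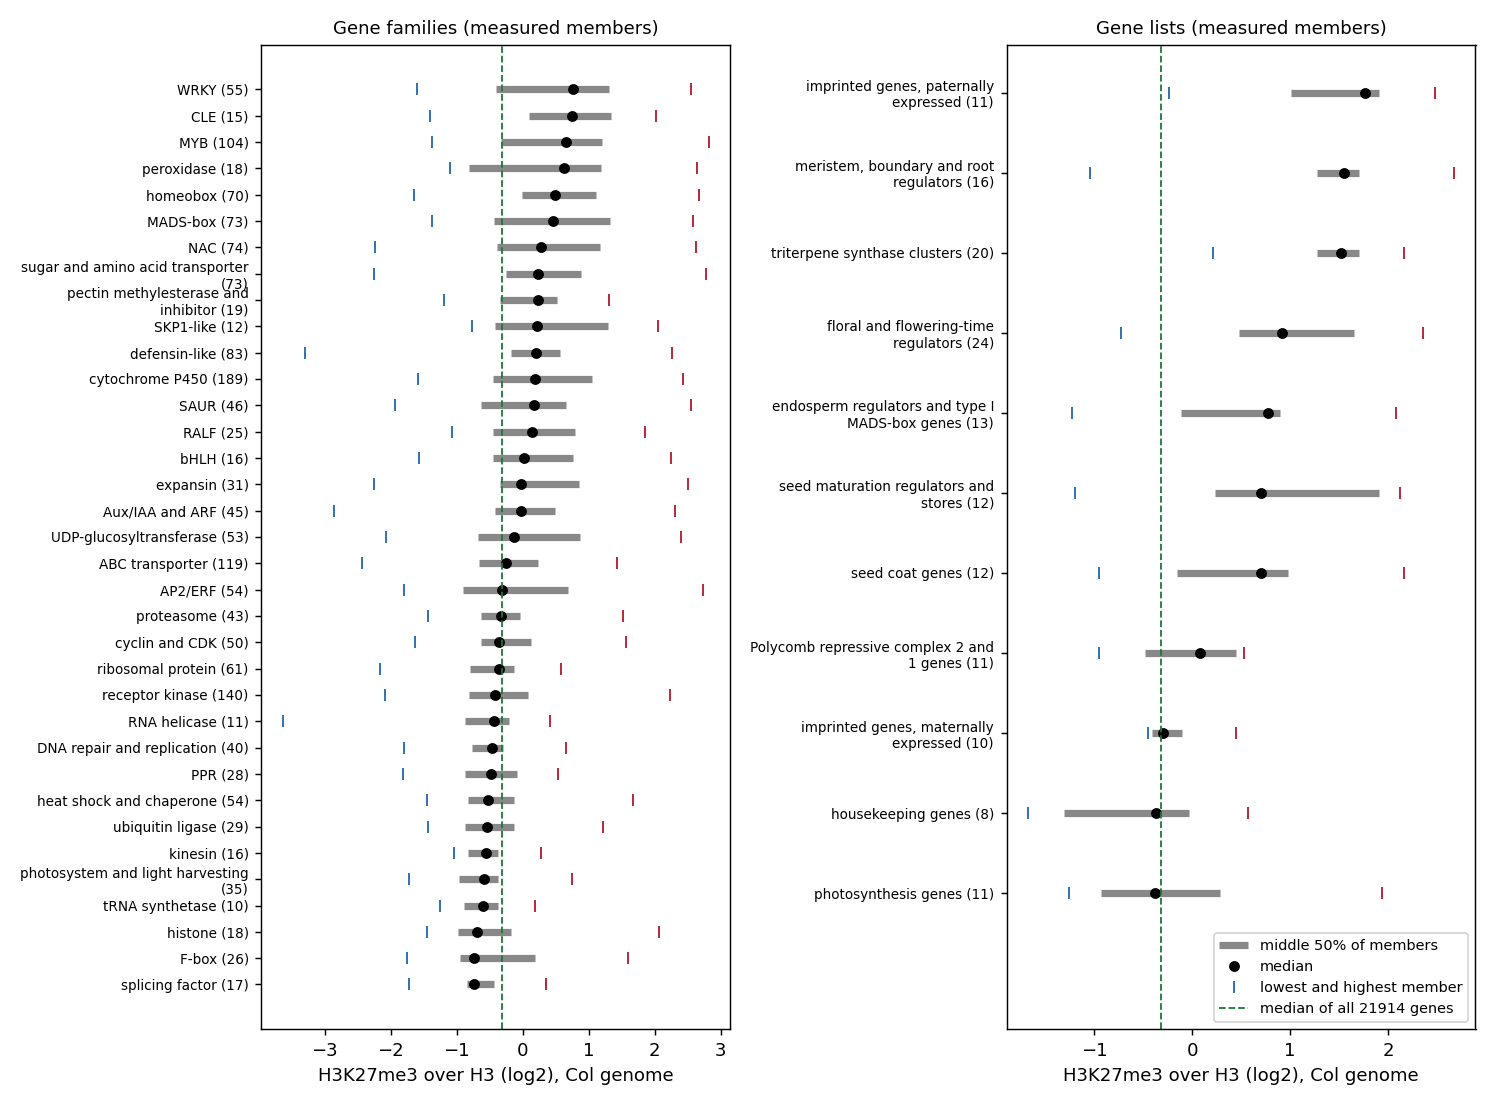
H3K27me3 over H3 of Col reads (log2) in 35 gene families (left) and 11 gene lists (right), with the number of measured members in brackets. Points are medians, grey bars the middle 50% of members, ticks the lowest and highest member, and the dashed line the median of all genes (-0.32); the list medians run from -0.38 for photosynthesis genes to 1.77 for paternally expressed genes.

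High genes had high neighbours more often than measured genes did as a whole. Of the 2140 high genes, 55.1% had a high gene directly next to them among annotated genes, against 14.6% of all measured genes. Genes that overlap share bins. Counting only neighbours that do not overlap, the share of high genes was 53.8%, and the matching share of all measured genes was not computed. In all, 717 high genes lay in 179 runs of 3 or more. The longest run, of 16 genes on chromosome 4 from AT4G15270 to AT4G15400, held 20855 H3K27me3 against 3614 H3 reads, a pooled level of 1.70, and its genes ranged narrowly from 1.33 to 2.04. It contains the triterpene genes of the arabidiol and baruol clusters: the synthases PEN1 (1.70 ± 0.12) and BARS1 (1.38 ± 0.24), and cytochrome P450 genes of the CYP702A and CYP705A groups. All 16 were also covered by leaf domains, and the Ler reads of the run gave 0.80 (1139 against 805). A wider list of triterpene cluster genes, drawn up after this run was seen, has 11 of its 20 measured genes in the run, which are high by the way runs are defined. Of the 9 outside it, 6 were high, among them the synthases MRN1 of marneral (1.69 ± 0.13) and THAS1 of thalianol (1.52 ± 0.27).

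The next run, 13 genes on chromosome 4 from AT4G13560 to AT4G13640, was higher still, with 17786 against 2730 reads (1.87) and a range from 1.45 to 2.40. It contains MEE57, a gene of the DNA methyltransferase family with 2.40 ± 0.14, HTA4, UNE15 and UNE16. The Ler reads of this run gave 0.07 (586 against 685), and 7 of its 13 genes were covered by leaf domains. On chromosome 1 a run of 8 genes from AT1G65845 to AT1G65910 reached 2.09. It holds FMO GS-OX1 and BZO1, both of glucosinolate metabolism (2.27 and 2.11), and AAE12 at 2.58 ± 0.34. Another run of 8 on that chromosome, from AT1G67855 to AT1G67900, was at 1.44. Ler reads of these runs of 8 gave 1.00 and 0.69. A further 6 runs of 7 genes followed; the first by position, AT1G22370 to AT1G22440, opens with the glucosyltransferase genes UGT85A5, UGT85A3 and UGT85A1 and was at 1.24. Another, on chromosome 1, contains AP1. Ler reads of the run from AT1G22370 gave 0.73, and those of the run with AP1 1.03.

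Low genes also lay in runs, and the 3 longest were at chromosome ends or near a centromere. Of the 3017 low genes, 43.0% had a low gene directly next to them, against 20.5% of all measured genes. Counting only neighbours that do not overlap, the share of low genes was 34.7%, and the matching share of all measured genes was not computed. In all, 575 low genes lay in 152 runs of 3 or more. The longest run, 12 genes from AT1G80880 to AT1G80990 with the magnesium transporter gene MGT1, lies at the right end of chromosome 1 and held 2413 H3K27me3 against 3408 H3 reads (-1.33). A run of 11 genes from AT2G01070 to AT2G01175 lies at the left end of chromosome 2 and was at -1.42, while its Ler reads gave 0.05 (329 against 389). It holds ORC4, of the origin recognition complex, and APG2. The third, also of 11 genes, from AT2G06200 to AT2G06541, is pericentromeric throughout and was at -1.22; it holds GRF6, the replication protein gene RPA1A and the photosystem II gene PSBX. The runs of 8 genes, AT3G63240 to AT3G63300 and AT4G38660 to AT4G38740, were at -1.23 and -1.27. Ler reads of the longest and the third run gave -0.78 and -0.56, and those of the runs of 8 genes -0.57 and -0.76. No gene in these 5 runs was covered by a leaf domain.

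**Figure D4:**
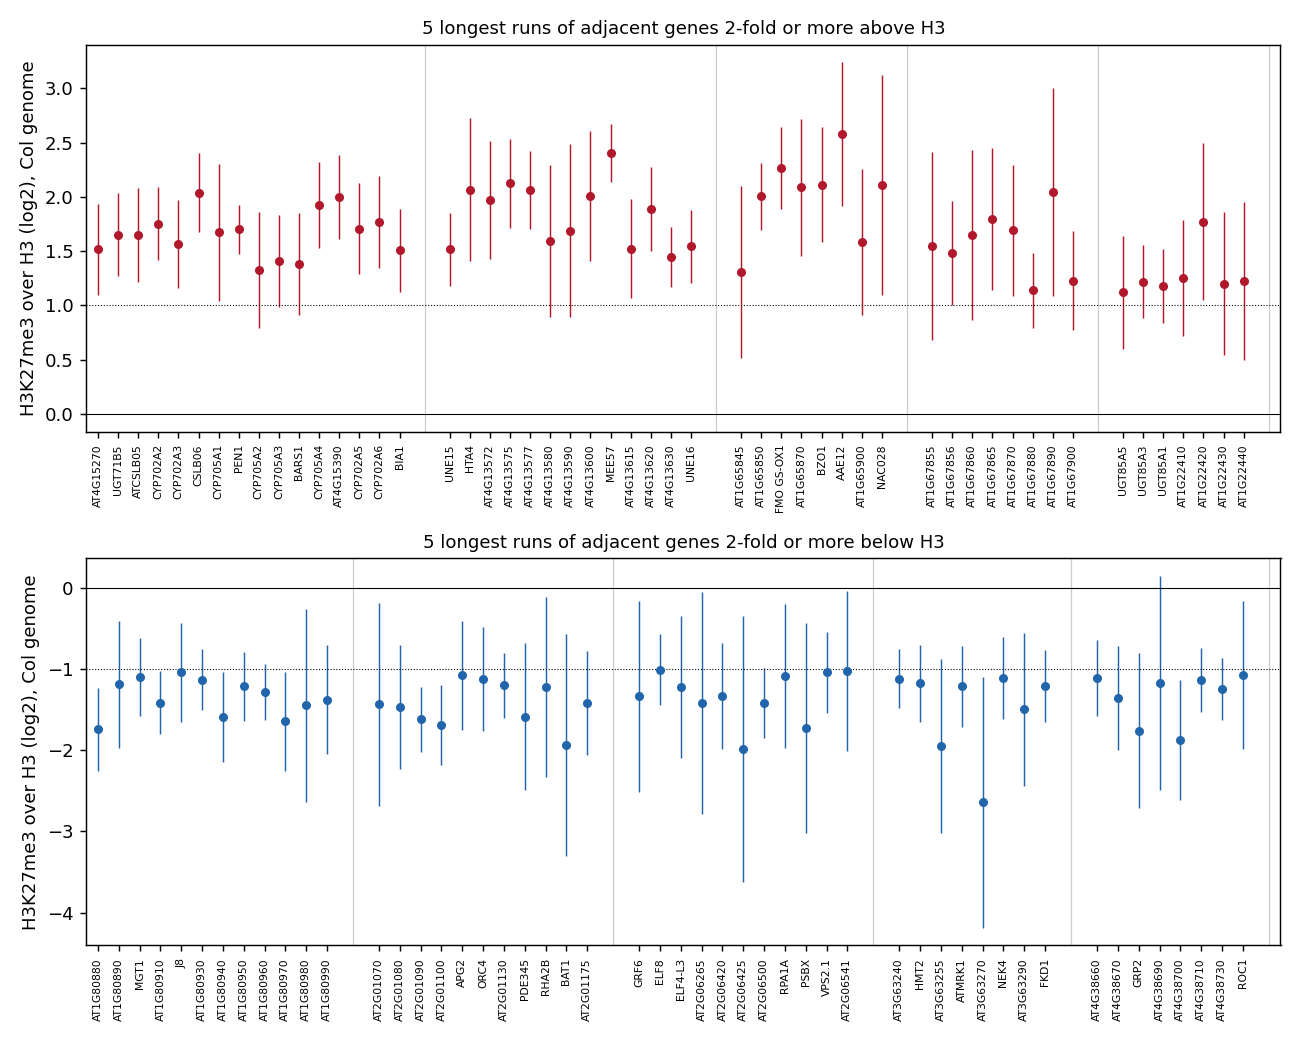
Level of each gene (log2 of H3K27me3 over H3, Col reads) in the 5 longest runs of adjacent high genes (top) and low genes (bottom), in map order, with bars of 1.96 widened standard errors; grey lines part the runs and dotted lines mark 2-fold. The 16 genes of the longest high run lie between 1.33 and 2.04, and the 12 genes of the longest low run between -1.74 and -1.04.

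Genes near centromeres had lower levels on the maternal genome than arm genes, and more of them were low. Pericentromeric windows were defined without H3K27me3, as blocks of 100 kb windows in which genes cover less than 30% of the surrounding 1 Mb (207 of 1193 windows). Their 1008 measured genes had a median of -0.62 against -0.30 for 20906 arm genes; 4.56% were high and 30.6% low, against 10.0% and 13.0% on the arms. On each of the 5 chromosomes the pericentromeric median was below that of the arms. Chromosome 2 had the lowest, -0.73 with 38.0% of genes low, and chromosome 1 the highest, -0.51. Outside genes the contrast was larger: pooled pericentromeric bins in no gene were at -0.84 from 903733 H3 reads, and arm bins in no gene at 0.30 from 1905881. Bins inside genes were at -0.41 near centromeres and at 0.00 on the arms.

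Genes near chromosome ends were also more often low than arm genes farther in. The split by distance was chosen after values were seen. The 323 arm genes within 0.1 Mb of an end had a median of -0.85 with 41.5% low and 6.50% high. The median was -0.61 at 0.1 to 0.2 Mb, -0.66 at 0.2 to 0.5 Mb, -0.50 at 0.5 to 1 Mb, -0.42 at 1 to 2 Mb and -0.24 farther in. The ends were not alike. In the last 200 kb, the left end of chromosome 2 and the right ends of chromosomes 3 and 1 were at -1.16, -1.07 and -1.04 and held no high gene. The left end of chromosome 4 was at -0.11, with 7 high and 7 low of 48 genes.

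Over 1061 windows of 100 kb with at least 5 measured genes, the pooled gene body level ran from -1.57 to 1.66 with a median of -0.12. The level was 1 or more in 28 windows, 1 of them pericentromeric, and -1 or less in 24, of which 12 were pericentromeric and 6 in the last 200 kb of a chromosome. Of all 1061 windows, 89 were pericentromeric and 25 lay in the last 200 kb. The highest was chr1:24400001-24500000 (TAIR10) at 1.66, where 17 of 22 genes were high, among them DEG3, DEG4 and the receptor kinase genes RK1 and RK2. Next were chr4:7800001-7900000 at 1.58, with SUVH9, and chr3:21500001-21600000 at 1.57, which rests on 230 H3 reads in 7 genes, with RTM3. The window chr4:8700001-8800000 with PEN1 was at 1.57, and chr5:20600001-20700000 with SWEET13 and SWEET10 at 1.36. The lowest windows were chr3:13400001-13500000 and chr3:14000001-14100000, both pericentromeric at -1.57 with all 5 genes low, the latter with ARP6, a gene of the SWR1 remodelling complex. They were followed by chr2:1-100000 at -1.49 (9 of 9 low), chr1:30400001-30427630 at -1.32 (9 of 9 low) and chr2:4600001-4700000 at -1.30 (4 of 6 low).

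**Figure D5:**
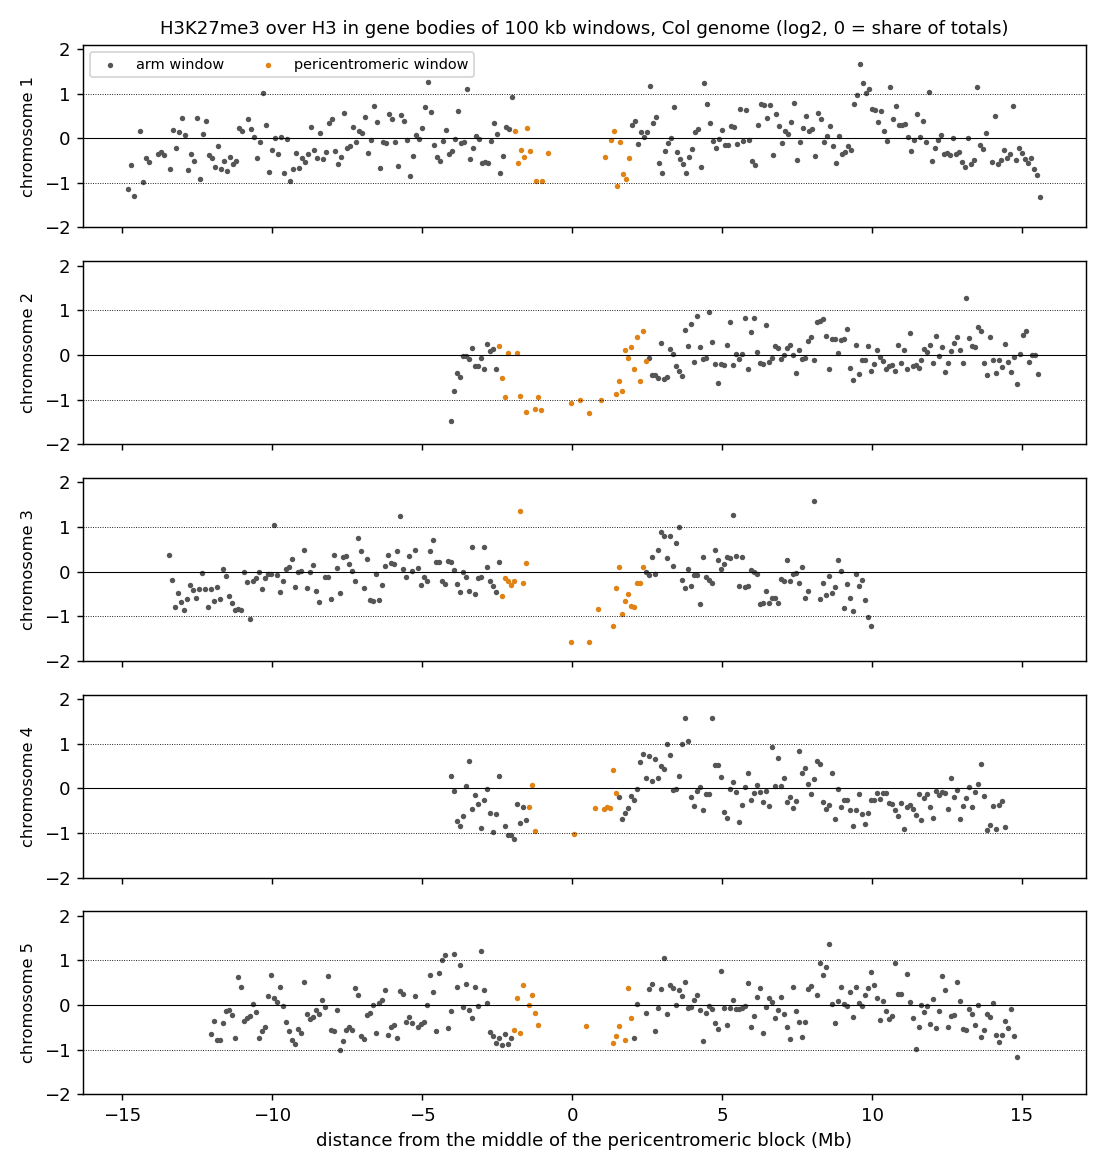
Pooled H3K27me3 over H3 of Col reads in measured gene bodies (log2) for 1061 windows of 100 kb, by distance in Mb from the middle of the pericentromeric block of each chromosome; orange windows are pericentromeric and dotted lines mark 2-fold. Low windows gather around the centre and at several chromosome ends, and windows above 1 lie on the arms except for 1.

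Leaf nuclei, an independent preparation with a single library, carried the mark on most of the same genes. Of the 2140 high genes, 1690 (79.0%) were covered over at least 50% of their body by leaf H3K27me3 domains, against 20.2% of all measured genes and 20 (0.663%) of the low genes. The median maternal level was 0.79 in the 4415 genes marked in leaf and -0.48 in the 17499 others. The remaining 450 high genes were not marked in leaf, and 334 of them had no base in a leaf domain. As a check of gene positions, 20 of 25 floral regulators were leaf-marked at their annotated places, and 6 and 3 when moved by 50000 bp in either direction. In the domain lists of the endosperm libraries themselves, which share reads with the parental counts, the median level was -0.54 in genes marked in 0 of the 4 lists and 1.20 in genes marked in all 4.

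Paternal values can be set beside the maternal ones for the 14070 measured genes with at least 20 H3 reads on Ler as well. Their median was -0.34 on Col and -0.22 on Ler, each scaled to the totals of its own parent. Col held 4.31 times the H3 reads of Ler and 9.41 times its H3K27me3 reads. The levels and counts given here therefore do not compare the amount of the mark between the parents. High were 1223 genes on Col and 675 on Ler, with 278 high on both, 22.7% of the former and 41.2% of the latter. Low were 1610 and 2273, with 535 low on both (33.2% and 23.5%). The Ler columns hold 1437423 H3 and 1170723 H3K27me3 reads and so have larger counting errors, and no difference between the parents was tested.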

How the data were processed

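The authors deposited raw counts per 150 bp bin, 1 column for each parent and antibody, and 1 list of H3K27me3 domains per library, with a p-value or q-value and a log2 enrichment per domain (deposited values whose scale was taken as log2 from their range; only the domains' positions were used). The tools, per the submitters' processing notes, were Trim Galore, Bowtie2, Picard, deepTools 2.0 and SICER, with the build TAIR10; how reads were assigned to a parent, whether a read can enter several bins and which libraries were pooled is not stated. Bins were summed by midpoint over gene bodies of the TAIR10.1 annotation, whose nuclear chromosomes were taken to match TAIR10. A bin counts for each gene body that holds its midpoint. No annotation coordinate is printed. The level is log2 of (H3K27me3 + 0.5) over (H3 + 0.5), scaled to the nuclear Col totals, or to the nuclear Ler totals for Ler reads. Counting intervals are 95% Clopper-Pearson (Python 3.11.15, SciPy 1.17.1). Reads are not independent molecules, so these counting intervals cover counting error only. The widened intervals are 1.96 standard errors on each side, with the counting error multiplied by 1.90. Exact tests and replicate fits were not possible with pooled columns. The ratio and the 2-fold call were tried on simulated gene counts with known changes. The summing of bins, the scaling to nuclear totals, runs, windows and families were not part of that trial.

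Families were matched on symbols and synonyms, since product text was not used here; 8686 measured genes (39.6%) have a symbol, and proteins that only share a family's words were removed by name. Families needed 8 measured members. Named genes are the 12 highest and lowest by the interval bound nearest 0, the 2 highest and 2 lowest of each list or family, the 5 longest runs and the genes with most reads in the 5 highest and lowest windows; list members beyond the extremes, and genes under the minimum, were added for their roles after values were seen. The members and lists were chosen with earlier results of these data known. Alternatives tried were the scaling, the H3 minimum, the pseudocount, the bin rule, the top bins, overlapping genes and flanks. IgG and non-endosperm seed libraries were not used here.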

Additional observations from a re-analysis of the deposited data

Results flagged for a closer look

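Among genes under the minimum of 20 Col H3 reads, which enter no comparison above, 70 had 100 or more Col H3K27me3 reads. AT3G32040 had 254 against 17 H3 reads, AT1G54890 244 against 15, and CYP71A19, a cytochrome P450 gene, 243 against 14. WRKY54, a transcription factor gene, had 187 against 15. They were flagged because a signal lies in data that the measured set leaves out.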

How the results depend on the processing

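The count of high genes (2140) stayed within 1.5 times under every alternative but 2: it was 3337 relative to the median gene and 4398 when scaled to bins outside endosperm domains. The count of low genes (3017) became 1281 and 707 under these, and 1994 without genes that overlap another gene. The median level (-0.32) was 0.00 and 0.21 under these scalings, -0.34 with a minimum of 40 H3 reads, -0.30 with 10 and -0.28 with none, -0.34 with a pseudocount of 5, -0.30 without the top 0.1% of bins, -0.23 without overlapping genes and -0.30 with 500 bp on each side. The pericentromeric median minus the arm median (-0.32) was -0.40 without overlapping genes; the cause was not tested. Of 46 family and list medians, 20 and 33 moved outside the 95% interval of the median under the 2 scalings, which add the same shift to every gene. None moved outside it under the other alternatives. The bHLH, SAUR, RALF, expansin, UDP-glucosyltransferase, Aux/IAA and Polycomb medians, all near 0, did change sign under at least 1 of these other alternatives. Of 206 named genes, 60 and 133 moved outside their counting interval under the 2 scalings, and 29 with flanks of 500 bp. No paired analysis was possible because the columns are pooled over libraries and carry no replicate; leaving out a replicate could not be run for the same reason. Depth limits genes with few H3K27me3 reads: among the lowest genes, AT1G12440 with 3 reads has a standard error of 1.55, AT4G06639 with 4 reads 1.34, and BPA1 with 0 reads has a bound only.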
